A study of Homo sapiens with 21 samples.

Results

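PCDH7, PCDH19, NLGN4X, NCAM2, CNTN1 and ROBO1 are 6 genes for cell surface adhesion proteins best known from neurons. They were chosen by their measured values in these same libraries, as genes that had been seen low in antibody-treated or antibody-resistant breast cancer cells, and are 6 of the 37355 genes in the count table. Each symbol had 1 row in the table, and all 6 passed the filter on low counts, as did 17650 genes in all. Which comparison chose them is not given, so the choice may bear on any comparison of these groups. Their values in the comparisons with untreated cells are given as a description, without a test.

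The cells were BT474, a human breast cancer line with amplified ERBB2, the gene for the receptor HER2. RNA was sequenced in 21 libraries, 3 in each of 7 groups. The first group was BT474 given 10 µg/mL trastuzumab, a therapeutic antibody against HER2, for 3 days. The next was BT474 given 10 µg/mL trastuzumab and 10 µg/mL pertuzumab, an antibody against another part of HER2, for 3 days. BT-TR1 and BT-TR2 were pools resistant to trastuzumab, and BT-TPR1 and BT-TPR2 were pools resistant to trastuzumab plus pertuzumab. All 4 pools had gone 7 days without treatment at harvest, so they differ from the 3-day groups in the presence of antibody as well as in resistance. Untreated BT474 was the reference. The labels call the resistant cells pools and not clones, do not state how they were selected, and leave unstated whether replicates came from separate cultures, so a p-value here reflects only the spread among libraries, which may be technical. Each kind of resistance had 2 pools, and a difference seen in 1 pool has no second pool behind it.

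Protocadherins are cadherin-like proteins whose extracellular repeats bind the same protein on a neighbouring cell. PCDH7 and PCDH19 belong to the non-clustered branch, whose genes stand alone in the genome and whose cytoplasmic tails bind signalling and actin-regulating proteins. NLGN4X is a neuroligin, a postsynaptic protein that binds neurexins across the synaptic cleft. NCAM2 and CNTN1 are immunoglobulin-type adhesion molecules, CNTN1 being held to the membrane by a lipid anchor and NCAM2 being known from olfactory axons. ROBO1 is a receptor for SLIT proteins, repellent guidance cues of growing axons, and in the mouse mammary gland SLIT and ROBO proteins take part in duct growth and cell adhesion.

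The library totals ran from 7939270 counts in BT-TR1 replicate 3 to 21746391 counts in untreated replicate 3. Mitochondrially encoded genes took from 13.7% to 33.3% of counts, the highest being trastuzumab replicate 1. Replicate 1 libraries deviated from their group means together more than other same-numbered libraries did (correlation across genes of 0.369 to 0.645 over 13 pairs of groups). Over 17554 genes, the GC content of the transcript had a correlation of -0.478 with the log2 fold change of BT-TR1 on untreated cells, and of 0.629 with that of BT-TR2 on BT-TR1; these are correlations across genes, which are not independent replicates. ERBB2 averaged between 5444 CPM in BT-TR1 and 8184 CPM in untreated cells, and all 9 luminal breast markers were above 1 CPM in every group. Of 15 neuronal and neuroendocrine markers in the table, 3 to 6 were above 1 CPM in a group, with a summed level of 20.8 to 30.5 CPM over all libraries. The neuronal markers RBFOX3, STMN2, ELAVL3, ELAVL4, NEFL, NEFM and INA were all under 0.2 CPM in every group. Others of the list were expressed, with group means of 7.69 to 15.2 CPM for ENO2 and 2.72 to 8.44 CPM for SYP. MAP2 was at 1.765 to 3.394 CPM and DCX at 0.889 to 4.156 CPM. TUBB3 was at 4.747 CPM in untreated cells and at 0.960 to 1.731 CPM in the pools. Leukocyte markers summed to at most 0.259 CPM, and of 8 fibroblast markers only COL1A1 was above 1 CPM.

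The start regions of PCDH7, PCDH19 and NLGN4X, the 3 members that kept the smallest share of their untreated level in BT-TR1, BT-TR2 and BT-TPR1 (in BT-TPR2 PCDH19 kept more than NCAM2 and ROBO1), are shown so that their sequence can be set beside their levels. They come from RefSeq on GRCh38.p14 and hold 250 bases before and 50 bases after an annotated start, 5′ to 3′ on the gene's strand. All 6 genes matched the RefSeq table, with 9 windows among them. PCDH7 starts on the plus strand at chr4:30720119-30720418, PCDH19 on the minus strand at chrX:100410224-100410523, and NLGN4X on the minus strand at chrX:6228818-6229117 (window 1) and chrX:6227038-6227337 (window 2). Capitals mark matches to any of 5 motifs, searched on both strands: GGGCGG (GC box), CACGTG (E-box), CGGAAG (ETS core), TGACTCA (AP-1) and TGTTTAC (forkhead).
PCDH7: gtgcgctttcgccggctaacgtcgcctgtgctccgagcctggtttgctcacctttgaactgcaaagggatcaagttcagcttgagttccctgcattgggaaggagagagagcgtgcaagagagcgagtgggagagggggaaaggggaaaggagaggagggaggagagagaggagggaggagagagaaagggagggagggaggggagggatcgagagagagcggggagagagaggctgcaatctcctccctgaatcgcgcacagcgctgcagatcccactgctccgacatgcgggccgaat
PCDH19: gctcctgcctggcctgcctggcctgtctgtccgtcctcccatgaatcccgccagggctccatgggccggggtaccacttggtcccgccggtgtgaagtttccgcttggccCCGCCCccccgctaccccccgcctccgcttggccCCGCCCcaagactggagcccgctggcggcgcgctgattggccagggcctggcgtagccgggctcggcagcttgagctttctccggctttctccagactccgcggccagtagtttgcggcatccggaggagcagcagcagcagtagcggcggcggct
NLGN4X window 1: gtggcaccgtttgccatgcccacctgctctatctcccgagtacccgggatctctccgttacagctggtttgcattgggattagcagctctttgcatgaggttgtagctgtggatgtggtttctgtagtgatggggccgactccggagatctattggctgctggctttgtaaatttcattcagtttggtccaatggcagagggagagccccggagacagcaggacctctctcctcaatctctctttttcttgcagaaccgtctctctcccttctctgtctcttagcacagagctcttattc
NLGN4X window 2: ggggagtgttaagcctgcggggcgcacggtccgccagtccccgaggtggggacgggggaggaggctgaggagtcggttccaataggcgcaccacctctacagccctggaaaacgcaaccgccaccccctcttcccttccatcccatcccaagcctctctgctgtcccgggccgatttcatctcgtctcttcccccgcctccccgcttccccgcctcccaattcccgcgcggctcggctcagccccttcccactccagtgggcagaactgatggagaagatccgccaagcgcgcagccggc

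Of these windows, the one of PCDH19 held 2 GC boxes on the reverse strand, and the others held no match. Among all 35116 windows of this length, 45% held a GC box, 7.26% an E-box, 19.5% an ETS core, 4.95% an AP-1 motif and 3.42% a forkhead motif. The only other match in the 9 windows was 1 forkhead motif in a window of CNTN1 at chr12:40908107-40908406. The GC content was 60.3% for PCDH7, 71.0% for PCDH19 and 52.0% and 67.3% for the windows of NLGN4X, against a median of 58.7% over all windows. The ratio of observed to expected CpG pairs was 0.67 for PCDH7, 0.69 for PCDH19 and 0.40 and 0.73 for NLGN4X, with a median of 0.58 over all windows. No searched motif was found in more than 1 of the 6 genes.

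All 6 are long genes. On hg38 with GENCODE 29 the span ran from 118.6 kb for PCDH19 (chromosome X, 100291644 to 100410273, minus strand) to 1171 kb for ROBO1 (chromosome 3, 78597240 to 79767815, minus strand). The span was 426.4 kb for PCDH7 (chromosome 4, 30720415 to 31146805, plus strand) and 388.2 kb for NLGN4X (chromosome X, 5840637 to 6228863, minus strand). It was 545 kb for NCAM2 (chromosome 21, 20998315 to 21543329, plus strand) and 380.0 kb for CNTN1 (chromosome 12, 40692442 to 41072418, plus strand). Between 83.2% (for PCDH19) and 99.8% (for ROBO1) of tested coding genes had a shorter span, the median being 34.4 kb. The transcripts of NCAM2 and CNTN1 were poor in GC, at 34.2% and 38.3%, and only 1.0% and 9.0% of tested genes had less. No exon of any of the 6 overlapped an exon of another annotated gene, but NLGN4X has a near-identical copy on the Y chromosome, and how shared reads were counted is not given in the sources used here.

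Per length of exon, NCAM2 was the most abundant of the 6 in untreated cells, at 19.4 RPKM (CPM divided by the length of the joined exons in kilobases). ROBO1 followed at 4.83 RPKM, PCDH19 at 3.50 RPKM, NLGN4X at 3.23 RPKM, PCDH7 at 1.70 RPKM and CNTN1 at 1.61 RPKM. In BT-TR1, the group where PCDH7 was lowest, the order was NCAM2 at 3.91 RPKM, CNTN1 at 2.15 RPKM, ROBO1 at 1.31 RPKM, NLGN4X at 0.213 RPKM, PCDH19 at 0.171 RPKM and PCDH7 at 0.0287 RPKM. Below, levels are in CPM, a share of the library's total count after TMM scaling (edgeR's trimmed-mean factors for library composition), and compare groups within a gene.

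**Figure D1:**
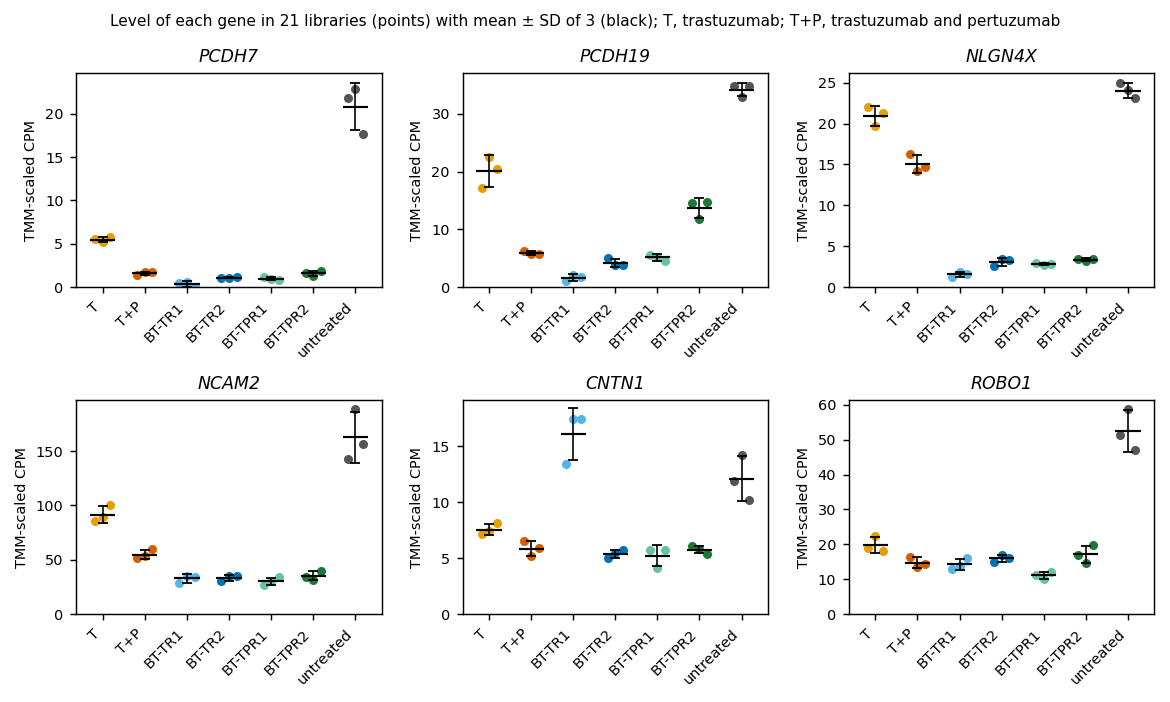
Level of each of the 6 genes in CPM (vertical axis, starting at 0) in 21 libraries (points) of 7 groups (horizontal axis), with the mean and SD of 3 libraries in black. Untreated cells stand above every other group for PCDH7, PCDH19, NCAM2 and ROBO1, NLGN4X stays near the untreated level with trastuzumab (20.98 against 24.04 CPM), and CNTN1 is highest in BT-TR1 at 16.1 CPM.

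PCDH7, a protocadherin whose tail binds the phosphatase PP1, was at most 1.82 CPM in the resistant pools and was already low after 3 days of antibody. It had 5.50, 5.18 and 5.79 CPM with trastuzumab, 1.37, 1.73 and 1.70 CPM with both antibodies, and 21.8, 22.8 and 17.7 CPM in untreated cells. In the trastuzumab-resistant pools it had 0.445, 0.609 and 0 CPM in BT-TR1, where these levels rest on 6, 7 and 0 reads, and 1.08, 1.08 and 1.15 CPM in BT-TR2. In the pools resistant to both antibodies it had 1.15, 0.944 and 0.833 CPM in BT-TPR1 and 1.69, 1.26 and 1.82 CPM in BT-TPR2. No treated or resistant library reached the lowest untreated one. Of all tested genes, 12.9% (trastuzumab) to 25.4% (BT-TR1) had every library of a group below every untreated one, which bears on each such statement below. The third BT-TR1 library, the shallowest of all, had no read, which allows up to 0.396 CPM by counting error alone.

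Against untreated cells, the log2 fold change of PCDH7 was -1.92 ± 0.21 (SE of the fit) with trastuzumab and -3.69 ± 0.23 with both antibodies. In the pools it was -5.69 ± 0.31 in BT-TR1, -4.22 ± 0.25 in BT-TR2, -4.40 ± 0.25 in BT-TPR1 and -3.72 ± 0.24 in BT-TPR2. The level left in the pools was between 1.69% and 7.64% of the untreated mean, and with both antibodies for 3 days it was 7.72%. BT-TPR2 averaged 1.59 ± 0.29 CPM and cells given both antibodies 1.60 ± 0.20 CPM (SD, n = 3 each), and those libraries overlapped. The fitted fold of BT-TR1 depends on the prior count, since its level is near the limit of detection.

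PCDH19 is a protocadherin that binds N-cadherin and the actin-regulating WAVE complex, and its mutation causes an epilepsy in girls. Like PCDH7, it was below the untreated level in every other group and lowest in BT-TR1. PCDH19 kept more of its untreated mean than PCDH7 did, with 58.8% beside 26.4% with trastuzumab and 40.0% beside 7.64% in BT-TPR2. It had 17.1, 22.6 and 20.5 CPM with trastuzumab, 6.27, 5.78 and 5.70 CPM with both antibodies, and 34.8, 32.8 and 34.8 CPM in untreated cells. The trastuzumab-resistant pools had 1.11, 2.18 and 1.72 CPM in BT-TR1 and 5.04, 3.76 and 3.85 CPM in BT-TR2. The other pools had 5.63, 5.29 and 4.55 CPM in BT-TPR1 and 14.5, 11.7 and 14.8 CPM in BT-TPR2. All libraries of the treated and resistant groups were below all untreated ones, and BT-TPR2 lay above both antibodies but below trastuzumab alone, overlapping neither.

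The log2 fold change of PCDH19 against untreated cells was -0.77 ± 0.15 with trastuzumab and -2.53 ± 0.17 with both antibodies. It was -4.37 ± 0.20 in BT-TR1, -3.02 ± 0.17 in BT-TR2, -2.73 ± 0.17 in BT-TPR1 and -1.32 ± 0.16 in BT-TPR2. BT-TPR2 held 40.0% of the untreated mean, and the other pools 4.88% to 15.1%.

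NLGN4X showed another course, little lower after 3 days of antibody and far lower in every pool. It had 22.0, 19.6 and 21.2 CPM with trastuzumab, 16.3, 14.2 and 14.7 CPM with both antibodies, and 24.9, 24.1 and 23.1 CPM in untreated cells. It had 1.26, 1.91 and 1.58 CPM in BT-TR1, 2.58, 3.50 and 3.27 CPM in BT-TR2, 2.93, 2.71 and 2.88 CPM in BT-TPR1 and 3.49, 3.16 and 3.45 CPM in BT-TPR2. The highest pool library was below the lowest library with both antibodies, and in each treated library NLGN4X was below the lowest untreated one.

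The log2 fold change of NLGN4X against untreated cells was -0.20 ± 0.12 with trastuzumab and -0.68 ± 0.12 with both antibodies, and in the pools it was -3.93 ± 0.16 in BT-TR1, -2.94 ± 0.14 in BT-TR2, -3.08 ± 0.14 in BT-TPR1 and -2.84 ± 0.14 in BT-TPR2. Trastuzumab-treated cells kept 87.2% of the untreated mean and cells with both antibodies 62.6%, while the pools kept 6.60% to 14%. In bulk RNA, fewer cells that express a gene and less of its RNA per cell cannot be told apart, and this holds for every level given here.

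NCAM2 was lower with each step from 1 antibody to 2 and to resistance, and reached much the same level in the 4 pools. It had 85.2, 89.3 and 99.9 CPM with trastuzumab, 51.5, 53.3 and 59.7 CPM with both antibodies, and 143, 189 and 157 CPM in untreated cells. It had 28.3, 35.5 and 34.6 CPM in BT-TR1, 30.3, 34.8 and 35.1 CPM in BT-TR2, 27.1, 30.3 and 33.7 CPM in BT-TPR1 and 34.3, 31.8 and 39.7 CPM in BT-TPR2. Each neighbouring pair among the pools overlapped, and the untreated group, the 2 treated groups and the pools were separate from each other.

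The log2 fold change of NCAM2 against untreated cells was -0.83 ± 0.13 with trastuzumab and -1.57 ± 0.13 with both antibodies. In the pools it lay between -2.42 ± 0.13 in BT-TPR1 and -2.21 ± 0.13 in BT-TPR2, so that 18.7% to 21.7% of the untreated mean was left.

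ROBO1 was lower in every treated and resistant group, at 21.2% (BT-TPR1) to 37.7% (trastuzumab) of the untreated mean. It had 18.96, 22.3 and 18.1 CPM with trastuzumab, 16.4, 13.4 and 14.5 CPM with both antibodies, and 51.4, 58.9 and 47.2 CPM in untreated cells. It had 12.8, 13.9 and 16.0 CPM in BT-TR1, 14.9, 16.9 and 16.1 CPM in BT-TR2, 11.3, 10.1 and 12.1 CPM in BT-TPR1 and 16.9, 14.7 and 19.7 CPM in BT-TPR2. In order of the mean, trastuzumab, BT-TPR2, BT-TR2, both antibodies and BT-TR1 each overlapped the next, and BT-TPR1 lay below them all.

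The log2 fold change of ROBO1 against untreated cells was -1.41 ± 0.13 with trastuzumab and -1.83 ± 0.14 with both antibodies. In the pools it was -1.89 ± 0.14 in BT-TR1, -1.72 ± 0.14 in BT-TR2, -2.24 ± 0.14 in BT-TPR1 and -1.62 ± 0.13 in BT-TPR2.

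CNTN1, the lipid-anchored partner of the CNTNAP1 protein, was not lower in every pool and was high in BT-TR1. It had 7.12, 7.43 and 8.10 CPM with trastuzumab, 6.49, 5.19 and 5.89 CPM with both antibodies, and 11.9, 14.2 and 10.2 CPM in untreated cells. It had 13.4, 17.4 and 17.4 CPM in BT-TR1, 4.98, 5.46 and 5.71 CPM in BT-TR2, 5.75, 4.15 and 5.77 CPM in BT-TPR1 and 6.05, 5.81 and 5.39 CPM in BT-TPR2. BT-TR1 overlapped untreated cells, and the other pools overlapped the libraries with both antibodies.

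The log2 fold change of CNTN1 against untreated cells was -0.67 ± 0.15 with trastuzumab and -1.04 ± 0.16 with both antibodies. It was 0.41 ± 0.15 in BT-TR1, -1.16 ± 0.16 in BT-TR2, -1.21 ± 0.16 in BT-TPR1 and -1.07 ± 0.16 in BT-TPR2. After each library was corrected for GC content, the value in BT-TR1 was 0.12, still above 0.

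**Figure D2:**
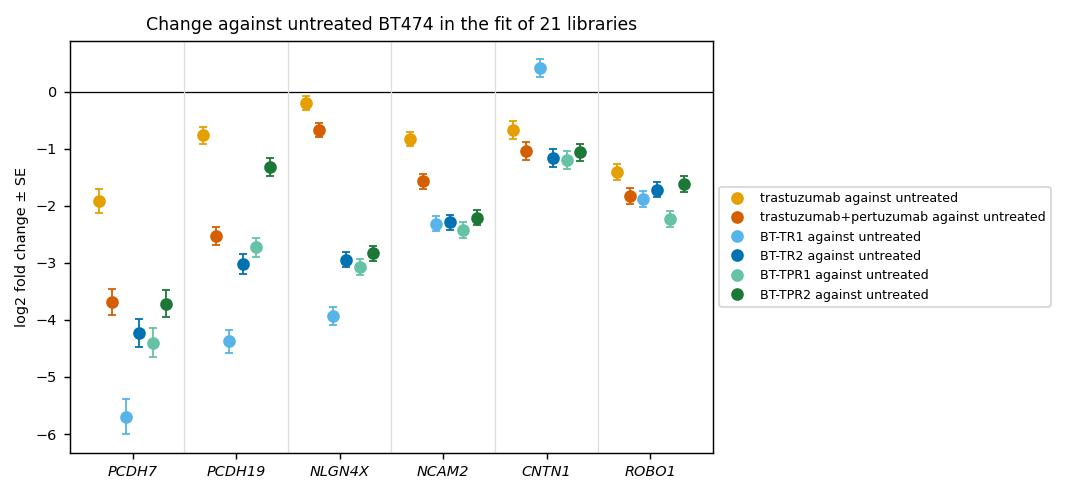
Log2 fold change with its SE (vertical axis) of the 6 genes (horizontal axis) in 2 treated groups and 4 resistant pools against the same 3 untreated libraries. The NLGN4X points split into 3-day treatments near 0 (-0.20 and -0.68) and pools below -2.8, the ROBO1 points lie together between -2.24 and -1.41, and BT-TR1 alone lies above 0 for CNTN1.

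These 6 comparisons share the untreated libraries, so likeness between them is no result of its own. The share of all tested genes with every library below every untreated one was 12.9% with trastuzumab and 14.5% with both antibodies. In the pools it was 25.4% in BT-TR1, 18.4% in BT-TR2, 20.0% in BT-TPR1 and 19.1% in BT-TPR2. The share of all 17650 tested genes called lower (edgeR's quasi-likelihood test, Benjamini-Hochberg adjusted p under 0.05) was 3.78% with trastuzumab, 6.02% with both antibodies, 22.3% in BT-TR1, 12.1% in BT-TR2, 14.4% in BT-TPR1 and 16.0% in BT-TPR2. The share called higher was 3.71% with trastuzumab, 6.39% with both antibodies, 21.3% in BT-TR1, 12.7% in BT-TR2, 12.9% in BT-TPR1 and 15.6% in BT-TPR2.

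Resistant pools were then set beside cells given the same antibodies for 3 days. NLGN4X was far lower in each of the 4 pools: its log2 fold change was -3.73 ± 0.16 in BT-TR1 and -2.75 ± 0.14 in BT-TR2 against trastuzumab, and -2.40 ± 0.14 in BT-TPR1 and -2.16 ± 0.13 in BT-TPR2 against both antibodies. For PCDH7 it was -3.78 ± 0.32 in BT-TR1 and -2.31 ± 0.25 in BT-TR2 against trastuzumab, but -0.71 ± 0.28 in BT-TPR1 and -0.03 ± 0.26 in BT-TPR2 against both antibodies. PCDH19 was lower against trastuzumab by log2 fold changes of -3.61 ± 0.20 in BT-TR1 and -2.25 ± 0.17 in BT-TR2. Against both antibodies PCDH19 was at -0.20 ± 0.17 in BT-TPR1 and at 1.21 ± 0.16, above the treated cells, in BT-TPR2.

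NCAM2 was lower than in the matched treated cells in each pool, by log2 fold changes of -1.48 ± 0.13 in BT-TR1, -1.45 ± 0.13 in BT-TR2, -0.85 ± 0.13 in BT-TPR1 and -0.64 ± 0.13 in BT-TPR2. ROBO1 differed little, at -0.48 ± 0.14 in BT-TR1, -0.31 ± 0.13 in BT-TR2, -0.41 ± 0.14 in BT-TPR1 and 0.21 ± 0.13 in BT-TPR2, where the libraries overlapped. CNTN1 was at 1.09 ± 0.16 in BT-TR1 and -0.49 ± 0.16 in BT-TR2 against trastuzumab, and at -0.16 ± 0.16 in BT-TPR1 and -0.02 ± 0.16 in BT-TPR2 against both antibodies, overlapping in both of these. Among all tested genes, 19.6% were called lower and 20.3% higher in BT-TR1 against trastuzumab, and 11.5% lower and 11.7% higher in BT-TR2. Against both antibodies, 14% were called lower and 11.9% higher in BT-TPR1, and 14.6% lower and 13.6% higher in BT-TPR2. No test is given for the members here, since the pools were among the libraries in which they had been seen low.

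**Figure D3:**
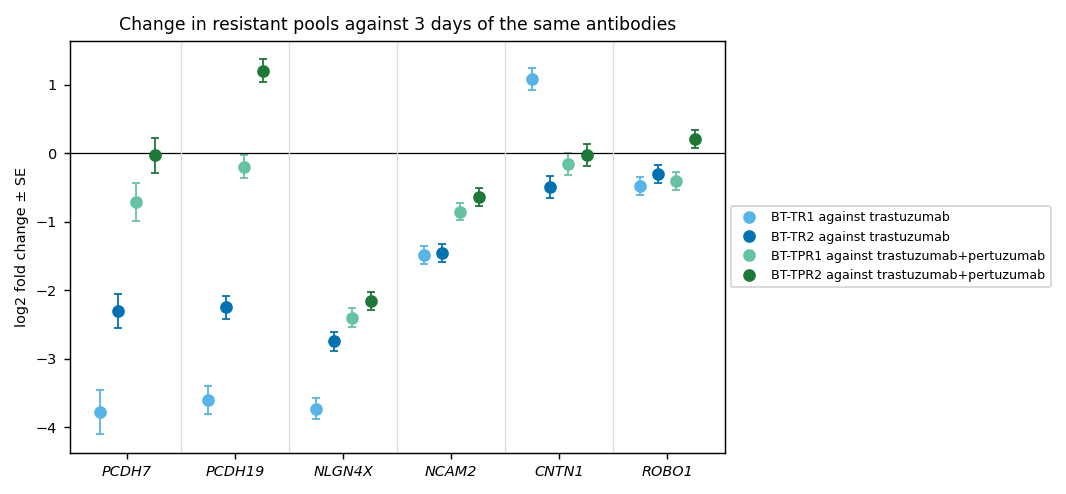
Log2 fold change with its SE (vertical axis) of the 6 genes (horizontal axis) in each resistant pool against 3 days of the antibodies it resists. All 4 NLGN4X points lie at or below -2.16, all ROBO1 points lie between -0.48 and 0.21, and PCDH19 in BT-TPR2 lies at 1.21.

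A further 3 comparisons set groups of 1 kind against each other, and here the members were tested. Which comparison chose them is not given, and they had been seen low in some of these libraries. A choice of genes low with both antibodies would favour lower values in the first of the 3. A choice of genes low in 1 pool would favour higher values in the other pool of its kind. The counts and p-values of all 3 are therefore given as the fit across all genes returned them, and nothing is read from them about the members as a group. With both antibodies rather than trastuzumab alone, 0.380% of all genes were called lower and 0.487% higher, and 3 of the 6 members fell. PCDH7 had a log2 fold change of -1.77 ± 0.23 (adjusted p = 0.000372), a level of 1.60 ± 0.20 CPM with both antibodies and 5.49 ± 0.31 CPM with trastuzumab (SD, n = 3 each). PCDH19 had a log2 fold change of -1.76 ± 0.16 (adjusted p = 9.14e-06) and NCAM2 one of -0.74 ± 0.13 (adjusted p = 0.00423). NLGN4X was at -0.48 ± 0.12 (adjusted p = 0.0783), ROBO1 at -0.42 ± 0.13 (adjusted p = 0.279) and CNTN1 at -0.37 ± 0.16 (adjusted p = 0.766), and these did not pass. For each of them the libraries with both antibodies lay below all those with trastuzumab alone, as was so for 5.03% of all tested genes. NLGN4X passed with replicate number as a block, which pairs these libraries (adjusted p = 0.00809), with GC correction (adjusted p = 0.0146), with both (adjusted p = 0.00161) and in DESeq2 (adjusted p = 0.00566), and not under the other settings or without any single library (adjusted p from 0.0537 to 1). ROBO1 passed with GC correction and the block (adjusted p = 0.0354).

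Between the trastuzumab-resistant pools, 4 members differed, 3 being higher and CNTN1 lower in BT-TR2 than in BT-TR1, where 9.64% of all genes were called higher and 8.09% lower. PCDH19 had 4.21 ± 0.71 CPM in BT-TR2 and 1.67 ± 0.53 CPM in BT-TR1 (SD, n = 3 each), a log2 fold change of 1.35 ± 0.21 (edgeR adjusted p = 0.00105). NLGN4X had 3.12 ± 0.48 CPM in BT-TR2 and 1.59 ± 0.33 CPM in BT-TR1 (SD, n = 3 each), a log2 fold change of 0.98 ± 0.17 (edgeR adjusted p = 0.00189). PCDH7 differed by 1.47 ± 0.39 (adjusted p = 0.0173), a call that rests on few reads and was lost without BT-TR1 replicate 3 (1.06, adjusted p = 0.102) or BT-TR2 replicate 1 (adjusted p = 0.0626) and in a fit of the 2 pools alone (adjusted p = 0.0809). CNTN1 had 5.38 ± 0.37 CPM in BT-TR2 and 16.1 ± 2.3 CPM in BT-TR1 (SD, n = 3 each), a log2 fold change of -1.57 ± 0.16 (edgeR adjusted p = 4.64e-05), and of -1.27 after GC correction. NCAM2, at 0.03 ± 0.13 (adjusted p = 0.892), and ROBO1, at 0.17 ± 0.14 (adjusted p = 0.384), did not pass; with GC correction NCAM2 was at 0.39 and passed (adjusted p = 0.0105).

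Between the pools resistant to both antibodies, PCDH19 and ROBO1 were higher in BT-TPR2 than in BT-TPR1, where 1.64% of all genes were called higher and 1.81% lower. PCDH19 had 13.7 ± 1.7 CPM in BT-TPR2 and 5.16 ± 0.55 CPM in BT-TPR1 (SD, n = 3 each), a log2 fold change of 1.40 ± 0.17 (edgeR adjusted p = 3.76e-05). ROBO1 had 17.1 ± 2.5 CPM in BT-TPR2 and 11.2 ± 1.0 CPM in BT-TPR1 (SD, n = 3 each), a log2 fold change of 0.62 ± 0.14 (edgeR adjusted p = 0.0128). The ROBO1 call was lost without BT-TPR1 replicate 1 (adjusted p = 0.0566), BT-TPR1 replicate 2 (adjusted p = 0.0853) or BT-TPR2 replicate 3 (adjusted p = 0.0897), and in a fit of the 2 pools alone (adjusted p = 0.125). The others did not pass: PCDH7 was at 0.68 ± 0.28 (adjusted p = 0.257), NLGN4X at 0.24 ± 0.15 (adjusted p = 0.554), NCAM2 at 0.21 ± 0.13 (adjusted p = 0.501) and CNTN1 at 0.14 ± 0.16 (adjusted p = 0.799).

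**Figure D4:**
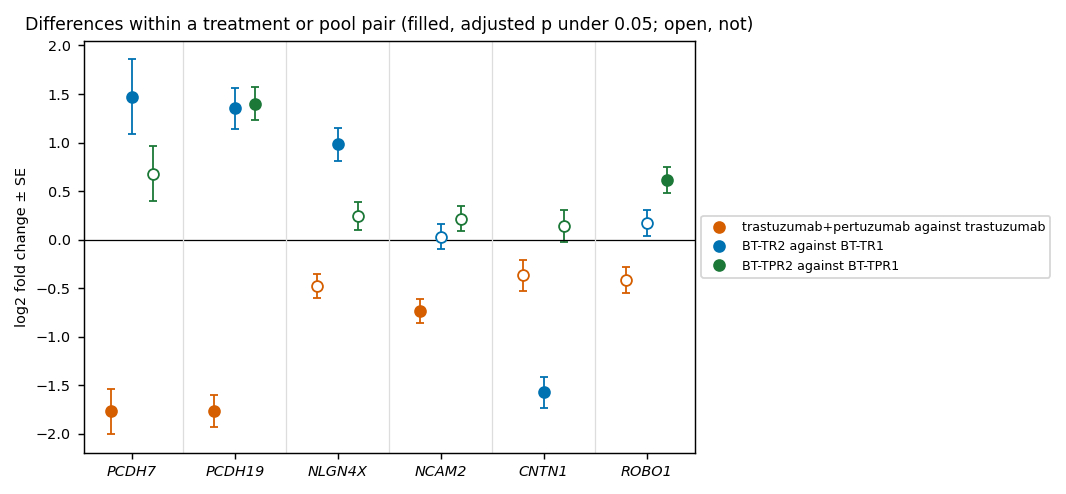
Log2 fold change with its SE (vertical axis) of the 6 genes (horizontal axis) between both antibodies and trastuzumab, BT-TR2 and BT-TR1, and BT-TPR2 and BT-TPR1, with filled points for an adjusted p under 0.05. PCDH19 passed in all 3, at -1.76, 1.35 and 1.40, and CNTN1 only between BT-TR2 and BT-TR1, at -1.57. The members had been seen low in some of these libraries, so filled points describe single genes and support nothing about the members.

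The wider family of adhesion genes was described with 7 lists of protocadherins, synaptic organisers, immunoglobulin adhesion molecules, axon guidance genes, cadherins and intracellular partners. Without the 6 members they held 184 genes, 175 of them in the table, of which 97 passed the filter and were tested. Of these 97, 1 reached the filter's level of 0.56 CPM in fewer than 3 of the 18 treated or resistant libraries and so passed through the untreated ones. The lists were drawn up with earlier results of these data known, so the counts describe these genes and support nothing.

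Against untreated cells, more adhesion-list genes were lower than higher in every group. With trastuzumab 12 were lower and 1 higher, a median log2 fold change of -0.22 beside -0.02 over all genes, and with both antibodies 24 were lower and 5 higher, a median of -0.20 beside -0.01. BT-TR1 had 47 lower and 14 higher (median -0.69), BT-TR2 had 40 lower and 8 higher (median -0.46), BT-TPR1 had 37 lower and 16 higher (median -0.47), and BT-TPR2 had 39 lower and 21 higher (median -0.33), beside all-gene medians between -0.010 and -0.002. With replicate number as a block 27 were lower and 6 higher with trastuzumab, and with DESeq2 13 and 3. Of all genes, 2604 were lower and 2025 higher with the block and 842 and 863 with DESeq2, rather than 667 and 654. With GC correction the counts with both antibodies were 28 lower and 11 higher, and with GC correction and the block those of BT-TR2 were 50 lower and 20 higher. The counts of all genes were then 1976 lower and 1807 higher with both antibodies, rather than 1062 and 1128. In BT-TR2 they were 4130 and 4455, rather than 2142 and 2245.

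**Figure D5:**
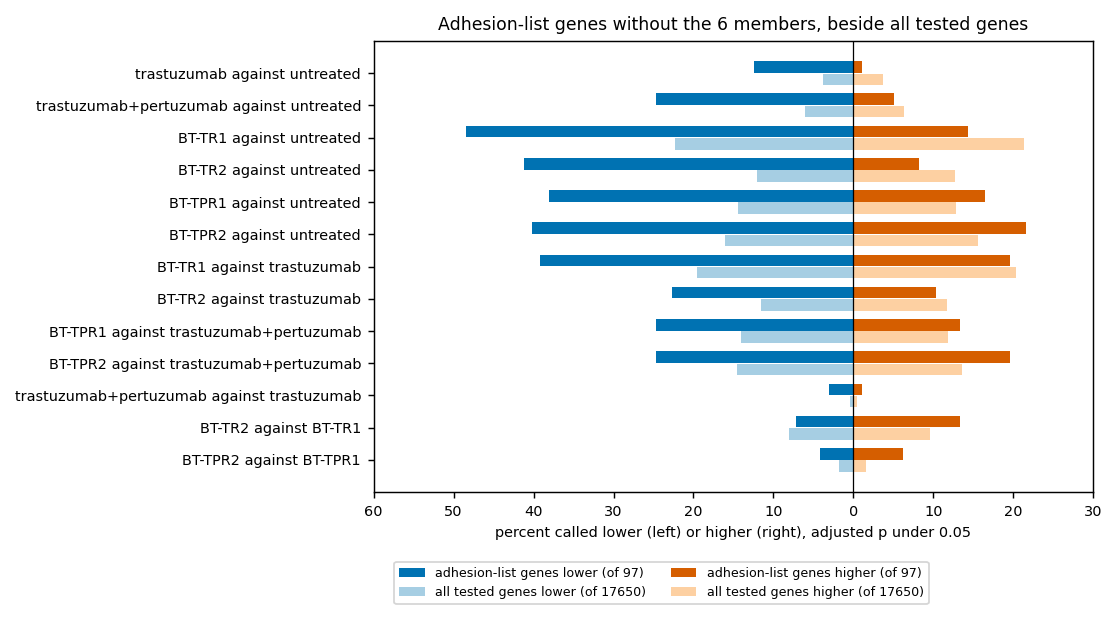
Percent of genes called lower (bars to the left) and higher (bars to the right) at an adjusted p under 0.05 in 13 comparisons (rows), for 97 adhesion-list genes without the 6 members (dark) and all 17650 tested genes (pale). In BT-TR2 against untreated cells 41.2% of the adhesion-list genes were lower, beside 12.1% of all genes; between BT-TR2 and BT-TR1 the lower share was 7.22% beside 8.09%.

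The non-clustered protocadherins PCDH9 and PCDH10, relatives of PCDH7 and PCDH19, fell in all 6 groups. PCDH10 averaged 1.86 ± 0.52 CPM with trastuzumab, 0.87 ± 0.12 CPM with both antibodies and 0.45 ± 0.30 CPM in BT-TR1, against 5.22 ± 1.15 CPM in untreated cells (SD, n = 3 each). Its log2 fold changes ran from -3.66 ± 0.36 in BT-TR1 to -1.48 ± 0.26 with trastuzumab (adjusted p = 4.32e-07 and 0.00142). PCDH9 fell by log2 fold changes between -2.72 ± 0.33 in BT-TR2 and -1.35 ± 0.29 with trastuzumab (adjusted p = 8.15e-06 and 0.00665). PCDH1, an epithelial protocadherin, went the other way in the pools resistant to both antibodies, at 0.87 ± 0.24 in BT-TPR1 (adjusted p = 0.00994) and 0.90 ± 0.24 in BT-TPR2 (adjusted p = 0.00677).

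Clustered protocadherins, whose genes lie in arrays and give neurons individual surface codes, fell in the pools: 8 of 15 tested in BT-TR1, 11 in BT-TR2, 9 in BT-TPR1 and 13 in BT-TPR2, with 0 higher, beside 1 lower with trastuzumab and 2 with both antibodies. As shares these are 53.3% in BT-TR1, 73.3% in BT-TR2, 60.0% in BT-TPR1 and 86.7% in BT-TPR2, where 22.3%, 12.1%, 14.4% and 16.0% of all genes were called lower. PCDHB11 was the first by size in BT-TPR2, at 0.28 ± 0.14 CPM against 2.95 ± 0.34 CPM in untreated cells (SD, n = 3 each), a log2 fold change of -3.31 ± 0.37 (edgeR adjusted p = 2.01e-06). PCDHB11 was also lower in BT-TPR2 than in BT-TPR1 (-2.85 ± 0.39, adjusted p = 0.000148). PCDHGB6 fell in each pool, by log2 fold changes from -1.83 ± 0.23 in BT-TPR2 to -1.34 ± 0.22 in BT-TPR1. Genes of an array share exons or have close paralogs, so reads may have been split among them and single members are uncertain.

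Among synaptic organisers, the neurexin and neuroligin type of adhesion protein to which NLGN4X belongs, 17 of 23 tested fell in BT-TR1, 13 in BT-TR2, 10 in BT-TPR1 and 10 in BT-TPR2, beside 5 with trastuzumab and 10 with both antibodies; 1 rose in BT-TR2 and 1 in BT-TPR2. The lower share was 73.9% in BT-TR1, 56.5% in BT-TR2 and 43.5% in BT-TPR1, BT-TPR2 and cells given both antibodies, where 22.3%, 12.1%, 14.4%, 16.0% and 6.02% of all genes were lower. With trastuzumab it was 21.7%, beside 3.78% of all genes. CADM2, a synaptic cell adhesion molecule, averaged 1.23 ± 0.49 CPM in BT-TR1, 2.11 ± 0.23 CPM in BT-TR2, 1.97 ± 0.15 CPM in BT-TPR1 and 2.30 ± 0.70 CPM in BT-TPR2, against 14.8 ± 2.5 CPM in untreated cells (SD, n = 3 each). Its log2 fold changes in the pools ran from -3.66 ± 0.25 to -2.70 ± 0.21 (adjusted p = 2.44e-09 in BT-TR1 and 2.06e-08 in BT-TPR2). CADM2 was also lower in each pool than in cells given the same antibodies for 3 days, from -3.31 ± 0.25 in BT-TR1 (adjusted p = 8.41e-09) to -1.51 ± 0.21 in BT-TPR2 (adjusted p = 2.41e-05). CNTNAP2, a neurexin-like protein that binds contactins, was at -3.24 ± 0.27 in BT-TR1 and -1.81 ± 0.22 in BT-TR2 against trastuzumab, and at -0.98 ± 0.23 in BT-TPR1 against both antibodies (adjusted p = 4.88e-08, 7.91e-06 and 0.0032).

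CBLN2, a secreted protein that bridges neurexins to postsynaptic receptors, was, like PCDH19, higher in BT-TPR2 than with both antibodies. It averaged 6.19 ± 0.61 CPM with both antibodies, 14.4 ± 1.2 CPM in BT-TPR1 and 27.3 ± 4.3 CPM in BT-TPR2, and 26.9 ± 1.1 CPM in untreated cells (SD, n = 3 each). It fell with both antibodies (-2.12 ± 0.14, adjusted p = 7.79e-09) and was higher in BT-TPR2 than with both antibodies (2.14 ± 0.14, adjusted p = 1.04e-09) and than in BT-TPR1 (0.92 ± 0.13, adjusted p = 0.000211).

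In the axon guidance list, ROBO2, the close relative of ROBO1, fell in all 6 groups, by log2 fold changes from -4.22 ± 0.32 in BT-TR1 (adjusted p = 9.86e-09) to -1.82 ± 0.23 in BT-TPR2 (adjusted p = 6.71e-06). ROBO2 averaged 0.32 ± 0.20 CPM in BT-TR1 and 1.80 ± 0.20 CPM in BT-TPR2, against 6.39 ± 0.47 CPM in untreated cells (SD, n = 3 each). The ligand SLIT2 fell in all 4 pools, by log2 fold changes of -1.41 ± 0.23 in BT-TR1 (adjusted p = 0.00013), -0.84 ± 0.21 in BT-TR2 (adjusted p = 0.00577) and -1.13 ± 0.21 in BT-TPR1 (adjusted p = 0.000643). In BT-TPR2 it averaged 3.49 ± 0.17 CPM, against 5.45 ± 0.66 CPM in untreated cells (SD, n = 3 each). NTN4, a netrin found in basement membranes, rose with both antibodies and in all 4 pools, to 1.53 ± 0.33 CPM with both antibodies and 2.35 ± 0.67 CPM in BT-TR1, against 0.38 ± 0.12 CPM in untreated cells (SD, n = 3 each). Its log2 fold change was 1.98 ± 0.28 with both antibodies (adjusted p = 9.27e-05) and 2.62 ± 0.28 in BT-TR1 (adjusted p = 1.19e-06).

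Of immunoglobulin adhesion molecules related to NCAM2 and CNTN1, 5 of 9 tested fell in BT-TR1, 4 in BT-TR2, 7 in BT-TPR1 and 6 in BT-TPR2, beside 1 with both antibodies; 2 rose in BT-TPR1 and 1 in BT-TPR2. The lower share was 55.6% in BT-TR1, 44.4% in BT-TR2, 77.8% in BT-TPR1 and 66.7% in BT-TPR2, where 22.3%, 12.1%, 14.4% and 16.0% of all genes were lower; with both antibodies it was 11.1% beside 6.02%. The higher share was 22.2% in BT-TPR1 and 11.1% in BT-TPR2, beside 12.9% and 15.6% of all genes. NRCAM, abundant in these cells, averaged 158 ± 16.9 CPM in BT-TR1, 168 ± 16.2 CPM in BT-TR2 and 179 ± 11.1 CPM in BT-TPR2, against 528 ± 66.1 CPM in untreated cells (SD, n = 3 each), log2 fold changes of -1.74 ± 0.12, -1.66 ± 0.12 and -1.56 ± 0.12 (adjusted p = 2.67e-09, 8.49e-09 and 1.27e-08). NRCAM also fell in BT-TPR1, to 273 ± 25.7 CPM, and was lower in BT-TPR2 than in BT-TPR1 (-0.61 ± 0.12, adjusted p = 0.00368). NCAM1, the paralog of NCAM2, fell in all 4 pools, from -1.72 ± 0.27 in BT-TPR2 (adjusted p = 7.97e-05) to -1.40 ± 0.28 in BT-TR1 (adjusted p = 0.000817). It was also lower in each pool than after 3 days of the same antibodies, by -1.85 ± 0.28 in BT-TR1, -2.08 ± 0.26 in BT-TR2, -1.79 ± 0.26 in BT-TPR1 and -2.08 ± 0.26 in BT-TPR2 (highest adjusted p = 4.64e-05).

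Of 13 tested classical cadherins and catenins, 7 fell and 3 rose in BT-TR1, and 4 fell and 2 rose in BT-TR2. In BT-TPR1 2 fell and 3 rose, and in BT-TPR2 2 fell and 7 rose. The lower share was 53.8%, 30.8%, 15.4% and 15.4% in these pools, beside 22.3%, 12.1%, 14.4% and 16.0% of all genes. The higher share was 23.1%, 15.4%, 23.1% and 53.8%, beside 21.3%, 12.7%, 12.9% and 15.6% of all genes. CDH7 and CDH11 rose in BT-TPR2, each by a log2 fold change of 0.68. CDH2 (N-cadherin), the binding partner of PCDH19, fell in all 6 groups. It averaged 11.2 ± 1.2 CPM with trastuzumab, 8.92 ± 1.53 CPM with both antibodies, 2.00 ± 0.68 CPM in BT-TR1, 3.48 ± 0.47 CPM in BT-TR2, 6.79 ± 0.92 CPM in BT-TPR1 and 9.30 ± 1.35 CPM in BT-TPR2, against 22.6 ± 2.1 CPM in untreated cells (SD, n = 3 each). Its log2 fold changes ran from -3.48 ± 0.21 in BT-TR1 (adjusted p = 7.35e-10) to -1.01 ± 0.17 with trastuzumab (adjusted p = 0.00103). CDH1 (E-cadherin), the main cadherin of epithelia, was called lower with both antibodies (-0.40 ± 0.13, adjusted p = 0.0446) and in BT-TR2 (-0.43 ± 0.13, adjusted p = 0.0181), and averaged 1308 ± 154 CPM and 1280 ± 112 CPM there, against 1723 ± 55.9 CPM in untreated cells (SD, n = 3 each).

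Of 17 tested intracellular partners of these proteins, 8 rose and 1 fell in BT-TR1, 3 rose and 0 fell in BT-TR2, 8 rose and 1 fell in BT-TPR1, and 7 rose and 1 fell in BT-TPR2. The higher share was 47.1% in BT-TR1, 17.6% in BT-TR2, 47.1% in BT-TPR1 and 41.2% in BT-TPR2, beside 21.3%, 12.7%, 12.9% and 15.6% of all genes; in BT-TR2 it was near that of all genes. The WAVE complex genes WASF3 and ABI1 were among those that rose: WASF3 rose with both antibodies (0.74 ± 0.15, adjusted p = 0.00269) and in BT-TR1 (0.57 ± 0.15, adjusted p = 0.00543), BT-TR2 (0.57 ± 0.15, adjusted p = 0.00951), BT-TPR1 (0.87 ± 0.15, adjusted p = 0.000297) and BT-TPR2 (0.52 ± 0.15, adjusted p = 0.0129). PPP1CB, a catalytic subunit of PP1, rose by a log2 fold change of 0.93 ± 0.15 in BT-TR1 (adjusted p = 0.000105), to 229 ± 30.2 CPM in BT-TR1, against 120.3 ± 21.1 CPM in untreated cells (SD, n = 3 each). Not all genes of these complexes rose. Among the comparisons with untreated cells, WASF1 was called lower in 2, and CYFIP1, CYFIP2 and PPP1CA were called in 0. BRK1 was called higher in 4, PPP1CC in 3, WASF2 in 2, and NCKAP1 and ABI2 in 1 each.

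Over all lists, 8 of the 97 genes were lower in all 6 groups than in untreated cells, namely ROBO2, CDH2, PCDHB6, PCDH10, PCDH9, SLITRK6, FLRT3 and CADM1, and 0 were higher in all 6 at an adjusted p under 0.05. In all 4 pools 24 were lower and 5 higher, the 5 higher ones being NTN4, CDH5, WASF3, ABI1 and BRK1. These groups share their untreated libraries. The share of all tested genes that moved the same way in all 6 groups, or in all 4 pools, is not given here. Whether the counts of this list exceed it therefore cannot be said.

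Against the matched 3-day treatment, BT-TR1 had 38 of the 97 lower and 19 higher, BT-TR2 22 lower and 10 higher, BT-TPR1 24 lower and 13 higher, and BT-TPR2 24 lower and 19 higher. The lower shares were 39.2% in BT-TR1, 22.7% in BT-TR2, 24.7% in BT-TPR1 and 24.7% in BT-TPR2, beside 19.6%, 11.5%, 14% and 14.6% of all genes. The higher shares were 19.6% in BT-TR1, 10.3% in BT-TR2, 13.4% in BT-TPR1 and 19.6% in BT-TPR2, beside 20.3%, 11.7%, 11.9% and 13.6% of all genes, and so near those in the first 3. The BT-TPR2 split turned to 28 lower and 29 higher with GC correction, and to 30 and 35 with that correction and the replicate block. The BT-TPR1 split was 18 lower and 18 higher with scaling by library size alone, 27 and 26 with GC correction, and 29 and 29 with that correction and the replicate block; the block alone called 58 genes rather than 37. Of all genes, the block alone called 3749 lower and 4038 higher there, rather than 2470 and 2098. Between both antibodies and trastuzumab, 3 were lower and 1 higher (2 and 0 with library size alone). The shares were 3.09% lower and 1.03% higher, beside 0.380% and 0.487% of all genes. The 2 lower ones that the naming rule took were CBLN2 (-1.22 ± 0.13, edgeR adjusted p = 6.12e-05) and CADM2 (-0.84 ± 0.19, edgeR adjusted p = 0.0416). The higher one was NTN4 (1.12 ± 0.25, edgeR adjusted p = 0.038). In BT-TR2 against BT-TR1, 7 were lower and 13 higher, or 3 and 19 with library size alone; the shares were 7.22% lower and 13.4% higher, beside 8.09% and 9.64% of all genes. In BT-TPR2 against BT-TPR1 4 were lower and 6 higher, or 7 and 17 with the replicate block, shares of 4.12% and 6.19% beside 1.81% and 1.64% of all genes.

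As a description of how the members varied together, the Pearson correlation of mean log2 CPM over the 7 groups was between 0.661 (NLGN4X with ROBO1) and 0.942 (PCDH7 with PCDH19) for pairs without CNTN1, and between -0.069 and 0.455 for pairs with it. The groups share the scaling of 1 table, and the untreated group, high in 5 of the genes, bears on each of these values. Of 11358 genes with at least 5 CPM, those most like NLGN4X over the groups included RNF122 and SLC37A4 (r of 0.997 and 0.992). SLC37A4, for example, averaged 48.9 CPM with trastuzumab, 43.0 CPM with both antibodies and 23.8 to 31.7 CPM in the pools, against 50.4 CPM in untreated cells, a smaller change of the same shape.

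The genes most like PCDH7 were TMTC4, DDX11 and DAGLB (r of 0.975, 0.973 and 0.968), and those most like PCDH19 were DNAJC14, IP6K2 and FPGS (r of 0.972, 0.963 and 0.961). For NCAM2 they were HYOU1, IGSF3 and FAM213A (r of 0.979, 0.977 and 0.976), and for ROBO1 ESYT1, HLA-C and RP5-821D11.7 (r of 0.991, 0.985 and 0.970). CNTN1 was most like COQ2, TTC14 and TMEM41B (r of 0.992, 0.986 and 0.985), which were also highest in BT-TR1. TTC14, for example, had 13.4 CPM in BT-TR1 and 11.6 CPM in untreated cells. With 7 points and 11358 candidates, high values are to be found for any gene.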

How the data were processed

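Total RNA from untreated, treated and resistant BT474 cells gave 21 libraries. The authors deposited raw read counts per gene. They also deposited log2-scale values, named as variance-stabilized in the deposit. Bowtie2, featureCounts, DESeq2 and hg38 are named, per the submitters' processing notes, without roles; versions, settings, annotation and strandedness are not given in the sources used here. The counts entered every comparison, and the deposited log2-scale values 1 alternative.

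The analysis used edgeR 4.0.16 and limma 3.58.1 under R 4.3.3. filterByExpr by group (minimum count 10, minimum total 15) kept 17650 of 37355 genes. TMM scaling and 1 fit of 21 libraries with a term per group (14 residual degrees of freedom) were followed by quasi-likelihood tests with Benjamini-Hochberg adjustment over 17650 genes, calls being made at an adjusted p under 0.05. CPM are counts relative to the TMM-scaled library total, with SD, and SE of a log2 fold change comes from the fit. Positions came from GENCODE 29. A gene at 0 counts has a limit of 3 counts, which covers counting error only. The script was tested on simulated counts.

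The members and the gene lists were chosen with earlier results of these data known. Named were the members, up to 4 called genes per list and comparison by size of change (mean of at least 1 CPM), the 3 genes most like each member (at least 5 CPM), and markers; not every gene that the rule names is given, and 1 of those most like a member is not reported here. Same-numbered replicates deviated together (every correlation over 0.1) in 10 of 13 comparisons. For both antibodies against untreated cells, BT-TR1 against trastuzumab, and BT-TR2 against BT-TR1, replicate 2 alone fell short of that. Replicates differed by 5.40 to 79.7 times the counting error (chi-square per degree of freedom), so none was a repeat of another. The fits were repeated without the filter, with a strict one (1 CPM in 3 libraries), with RLE scaling or library size alone, in DESeq2 1.42.0, in limma from the deposited log2-scale values, on only the 2 groups compared, with the replicate block, GC correction (spline with 5 degrees of freedom) with and without the block, with replicates 2 and 3 alone, with a fold threshold of 2, and without each library in turn.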

Additional observations from a re-analysis of the deposited data

Results flagged for a closer look

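Pools resistant to the same antibodies differed in 4 members for trastuzumab and 2 for both antibodies, by edgeR's test of the difference. Of all genes, 9.64% were called higher and 8.09% lower in BT-TR2 against BT-TR1, and 1.64% and 1.81% in BT-TPR2 against BT-TPR1. The members had been seen low in some of these libraries, so these calls are a description of single genes. In BT-TR2 against BT-TR1 the log2 fold change was 1.47 for PCDH7, 1.35 for PCDH19, 0.98 for NLGN4X and -1.57 for CNTN1. In BT-TPR2 against BT-TPR1 it was 1.40 for PCDH19 and 0.62 for ROBO1. In the first comparison the change also correlated with GC content across genes (0.629), and after GC correction the values were 1.65 for PCDH7, 1.30 for PCDH19, 1.05 for NLGN4X and -1.27 for CNTN1.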

How the results depend on the processing

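The direction of every member in the 3 tested comparisons held under all alternatives run except where named here. Without BT-TR1 replicate 1, BT-TR2 replicate 2 or BT-TR2 replicate 3, NCAM2 between those pools turned to -0.088, -0.023 and -0.007 (up to 0.096 without another library); without BT-TPR1 replicate 2, CNTN1 between the pools resistant to both antibodies turned to -0.001 (up to 0.216). The cause was not tested. Adhesion genes called with trastuzumab against untreated cells numbered 13, and 33 with the replicate block, 26 with GC correction, 35 with both, 20 with replicates 2 and 3 alone and 7 with only the 2 groups. All genes called moved likewise, from 667 lower and 654 higher to 2604 and 2025 with the block. They were 1528 and 1285 with GC correction, and 2621 and 2326 with both. With replicates 2 and 3 alone they were 1305 and 1167, and with only the 2 groups 219 and 162. With both antibodies the adhesion genes called numbered 29, and 44 with the replicate block. All genes went there from 1062 lower and 1128 higher to 3149 and 2601. For BT-TPR2 against untreated cells the adhesion genes called numbered 60, and 38 with only the 2 groups. All genes went there from 2829 lower and 2746 higher to 1576 and 1484. Against the matched treatment, GC correction with the replicate block called 55 adhesion genes rather than 32 in BT-TR2, 58 rather than 37 in BT-TPR1 (58 also with the block alone) and 65 rather than 43 in BT-TPR2. Of all genes, that setting called 8161 rather than 4091 in BT-TR2, 8692 rather than 4568 in BT-TPR1 and 8992 rather than 4964 in BT-TPR2. A fold threshold of 2 left 8 adhesion genes with trastuzumab, 15 with both antibodies, 32 in BT-TR1, 25 in BT-TR2, 29 in BT-TPR1 and 27 in BT-TPR2 against untreated cells, and 26, 18, 18 and 23 in these pools against the matched treatment. Of all genes it left, in the same order, 277, 571, 2713, 1137, 1271 and 1646 against untreated cells. Against the matched treatment it left 2352, 1357, 1569 and 1730 of all genes. Members called between both antibodies and trastuzumab numbered 3, and 5 with GC correction and the replicate block; between BT-TPR2 and BT-TPR1 they numbered 2, and 1 with only the 2 groups or with a fold threshold of 2. Leaving out a library gave the following counts called: 9 to 14 for trastuzumab against untreated, 21 to 32 for both antibodies against untreated, 50 to 62 for BT-TR1 against untreated, 35 to 50 for BT-TR2 against untreated, 42 to 56 for BT-TPR1 against untreated, 40 to 61 for BT-TPR2 against untreated, 39 to 59 for BT-TR1 against trastuzumab, 23 to 36 for BT-TR2 against trastuzumab, 26 to 38 for BT-TPR1 against both antibodies, 35 to 47 for BT-TPR2 against both antibodies, 3 to 3 members for both antibodies against trastuzumab, 3 to 4 members for BT-TR2 against BT-TR1 and 1 to 2 members for BT-TPR2 against BT-TPR1. Leaving out a library also moved the count of all genes called, for example 597 to 1412 for trastuzumab and 3665 to 6451 for BT-TPR2, each against untreated cells. With scaling by library size alone the median of all genes was highest at 0.152 in BT-TPR1 against both antibodies, rather than 0.03 with TMM. It was 0.14 rather than -0.003 in BT-TPR1 against untreated cells, and 0.11 rather than 0.029 in BT-TR2 against trastuzumab. Changes are relative to that median. Depth limits PCDH7 most, with 0 to 7 reads a library in BT-TR1.
For both antibodies against untreated cells, BT-TR1 against trastuzumab and BT-TR2 against BT-TR1, replicate 2 libraries did not deviate together (-0.011, 0.096 and 0.073). Replicate 1 libraries did (0.564, 0.369 and 0.53), and so did those of replicate 3 (0.412, 0.334 and 0.35). Block values there rest on a partial pairing, and the main fit held no term for replicate number.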
